A study of Jatropha curcas with 10 samples.

Results

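RNA sequencing was used to look at the earliest sampled response of the flower-forming shoot tips of Jatropha curcas to GA3 (gibberellic acid). Jatropha curcas is a shrub grown for the oil of its seeds. Inflorescence meristems collected 6 h after GA3 were set against meristems labelled 0 h. Every library came from total RNA of inflorescence meristems of plants aged 3 years, the plants came from Nujiang in Yunnan, and each time had 2 libraries from RNA extracted separately. The labels give neither the dose nor the mode of treatment, name no cultivar or genotype, and give no untreated plants at 6 h, so GA3, hours since treatment and hour of the day cannot be told apart. Of the 28447 gene IDs in the deposited tables, 21469 had a value above 0 in at least 1 of the 4 libraries. The 17487 with a mean of at least 1 RPKM (reads scaled to gene length and library depth) over these 4 libraries were compared. The lowest mean among them was 1.00031 RPKM and the highest mean below the limit was 0.999998 RPKM.

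Gibberellins are plant hormones that promote stem elongation and affect the timing of flowering and the development of flowers. In the mechanism worked out in Arabidopsis and rice, the hormone binds the receptor GID1, and the bound receptor leads to the destruction of DELLA proteins, which otherwise hold back growth and regulate many transcription factors. Active gibberellin is also known to lower the expression of genes for its own synthesis and to raise that of genes for its inactivation in Arabidopsis. None of these genes can be pointed out here, because the deposited tables give IDs without names and 0 of the 28447 IDs matched the RefSeq gene table. The labelled tissue could not be checked against marker genes for the same reason. Genes are therefore described by level, change and length, and 4 of them by ID.

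The 6 h libraries held 15934189 and 17922830 reads and the 0 h libraries 17924974 and 19157081 reads, recovered from the RPKM values. At this depth 3 reads on a gene of 1 kb correspond to 0.157 to 0.188 RPKM. The 2 libraries of 6 h were less alike (Pearson r over genes of 0.941) than the 2 of 0 h (r = 0.970), and library 2 of 6 h was as close to library 2 of 0 h (r = 0.943) as to its own partner. The labels do not state whether both libraries of a time were made from different plants. The p-values below therefore reflect the scatter of these particular libraries, and that scatter may be technical.

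Most transcripts had nearly the same level at 6 h as at 0 h. Changes are differences of log2(RPKM + 1), a scale that makes changes of low genes look smaller than they are. Classes of fold change are counted on this scale, so low genes can have larger ratios of RPKM than their class states. The change had a median of 0.04 and quartiles of -0.28 and 0.32 over the 17487 genes. At least a 2-fold change was seen for 1409 genes (8.06%), of which 553 were higher and 856 lower at 6 h. This share has to be read against the replicates, since 1354 genes (7.74%) differed at least 2-fold between the 2 libraries of 6 h and 865 (4.95%) between the 2 of 0 h. The standard deviation over genes was 0.64 for the change, 0.70 for the difference of library 1 minus library 2 at 6 h and 0.51 for that at 0 h. The first percentile was -1.92 for the change, -1.31 for library 1 minus library 2 of 6 h and -1.26 for that of 0 h. The 99th percentile was 1.67 for the change, 2.35 for library 1 minus library 2 of 6 h and 1.444 for that of 0 h. The change is a difference between means of 2 libraries, whereas the other differences are between single libraries, which scatter more. The replicate values are therefore not on the same footing as the change, and the part of library scatter in the change was not tested. In bulk tissue, fewer cells of a type and less RNA per cell cannot be told apart in any of these values.

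At 6 h, 87 genes were higher and 115 were lower than at 0 h (limma, Benjamini-Hochberg adjusted p under 0.05), which is 1.16% of the genes tested. The rising genes made up 0.498% and the falling genes 0.658%. Without adjustment 1993 genes (11.4%) had a p under 0.05. In 44.3% of all tested genes the 2 libraries of 6 h did not overlap with the 2 of 0 h (25.9% with 6 h above, 18.4% with 6 h below), so separation of the 4 values was common among all genes. Among the called genes the gap between the nearest libraries of the 2 times was at least 0.99 (log2) for the rising and 1.03 for the falling genes.

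The number of called genes rested on every library of the comparison. Without library 1 or 2 of 6 h, 16 and 27 genes were higher and 9 and 12 lower. Without library 1 or 2 of 0 h, 23 and 11 were higher and 11 and 6 lower. Falling genes made up 56.9% of the calls with all libraries. In the alternative fits that kept both libraries of 0 h and of 6 h they made up 53.7% to 65.4%. They were the minority in each fit without one of these 4, which leaves 1 library at a time and few calls. Which direction held more genes is therefore not fixed by these data. Leaving out library 1 or 2 of 48 h, which only adds to the estimate of the spread, gave 57 rising genes either way and 74 and 75 falling ones.

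**Figure D1:**
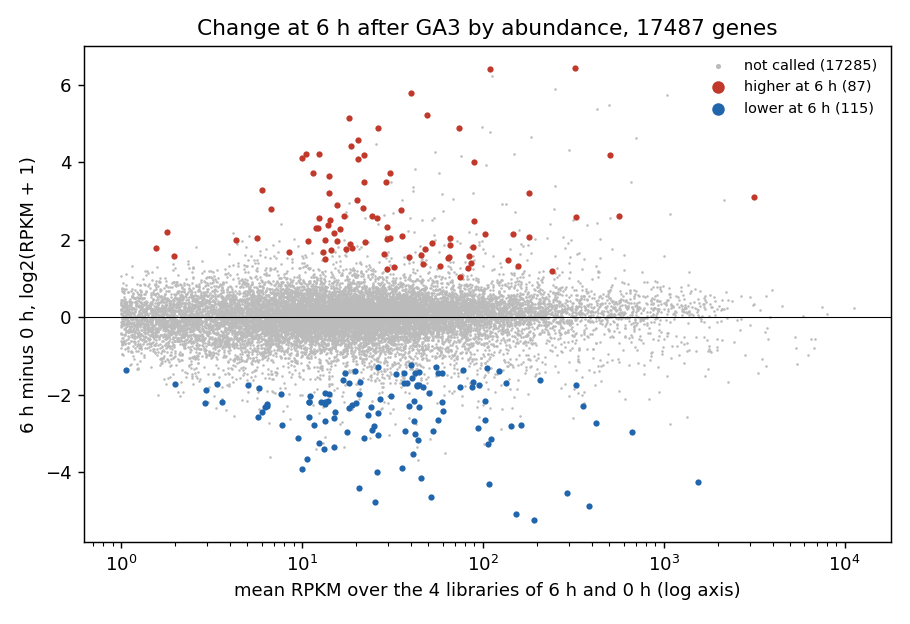
Change at 6 h against 0 h (6 h minus 0 h, log2(RPKM + 1), vertical axis) for 17487 genes by their mean RPKM over the 4 libraries (horizontal log axis), with the 87 genes called higher in red, the 115 called lower in blue and the others in grey. Of the 14 grey points beyond a change of 4, 11 are genes whose 2 libraries of 6 h were at least 8-fold apart.

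Called rises and falls had similar typical sizes. The median change of the rising genes was 2.20 (log2), with quartiles of 1.76 and 3.25 and a smallest change of 1.03. That of the falling genes was -2.23, with quartiles of the size of 1.76 and 2.93 and a smallest size of 1.24. On the log2(RPKM + 1) scale, 33 rising genes changed 2- to 4-fold and 28 changed 4- to 8-fold. Another 10 changed 8- to 16-fold and 16 changed more. Among the falling genes these numbers were 42, 48, 14 and 11. By mean RPKM a gene can fall in a higher class: one of 1149 bases, counted as 8- to 16-fold, was 97.3-fold lower. The largest called rise was 6.43 and the largest called fall -5.23 (log2). The median standard error was 0.31 for the rising and 0.33 for the falling genes, close to the 0.35 of all tested genes.

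Many large changes were not called. Of 119 genes at least 4-fold higher at 6 h, 54 were called, and of 150 at least 4-fold lower, 73 were called. The 142 uncalled genes of this size differed by a median of 1.32 (log2, as a size) between the 2 libraries of 6 h and 0.60 between those of 0 h. The 127 called ones differed by 0.39 at 6 h and 0.33 at 0 h. All 11 genes at least 16-fold lower on the log2(RPKM + 1) scale were called, against 16 of 30 at least 16-fold higher on it. An uncalled gene of 939 bases, with a change of -3.60 on this scale, was 80.5-fold lower by mean RPKM.

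Rising genes were mostly of low level at 0 h and of middle level at 6 h. Of the 87, 23 stood at 100 RPKM or more at 6 h, 59 at 10 to under 100, 5 at 1 to under 10 and 0 under 1 RPKM. At 0 h, 3 of the same genes stood at 100 RPKM or more, 30 at 10 to under 100, 40 at 1 to under 10 and 14 under 1 RPKM. The median level of the rising genes was 43.4 RPKM at 6 h and 6.22 RPKM at 0 h. The falling genes had a median of 8.10 RPKM at 6 h and 50.4 RPKM at 0 h. Of the 115 falling genes 10 were under 1 RPKM at 6 h, while at 0 h none was under 1 and 28 were at 100 RPKM or more. The median of all tested genes was 18.9 RPKM at 6 h and 18.7 RPKM at 0 h.

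The share of genes called was lowest among rare transcripts. Between 1 and under 3 RPKM, on the mean of the 4 libraries, 3 of 1960 genes rose and 4 fell (0.357% called), and between 3 and under 10 RPKM 5 of 3599 rose and 13 fell (0.50%). In the 4 classes from 10 RPKM upward 1.46% to 1.53% were called. From 10 to under 30 RPKM, 41 of 5466 genes rose and 40 fell, and this class held the most rising genes. From 30 to under 100 RPKM 25 of 4269 rose and 38 fell, and from 100 to under 300 RPKM 8 of 1439 rose and 14 fell. Among the 754 genes at 300 RPKM or more 5 rose and 6 fell. The classes also differed in what could be seen: a gene of the lowest class had a median of 34.8 reads in a library and one of the highest class 6078. The replicate difference moved with abundance too, with a standard deviation at 6 h of 0.61 (log2) in the lowest and 1.09 in the highest class, and at 0 h of 0.54 and 0.53. The log2(RPKM + 1) scale also makes changes look smaller in the lowest classes. The part of this scale, of depth and of replicate spread in the order of the classes was not tested.

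**Figure D2:**
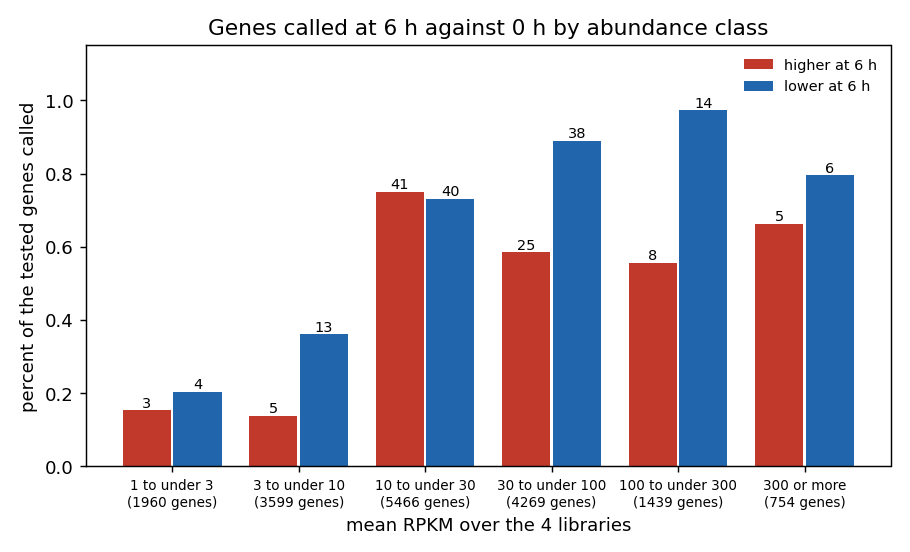
Percent of tested genes called higher (red) or lower (blue) at 6 h than at 0 h in 6 classes of mean RPKM over the 4 libraries, with the number of called genes above each bar. The 2 classes under 10 RPKM had the lowest shares, and falling genes outnumbered rising ones in every class except that of 10 to under 30 RPKM.

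Among the 100 genes with the highest means (1455 RPKM or more), 1 was called higher and 1 lower, against 1.16% called over all tested genes. Of these 100 genes 10 differed at least 2-fold, against 8.06% of all genes, and their median change was 0.05 (log2). Counts this small do not set the most abundant transcripts apart from the rest. Together these 100 genes took 12.4% and 11.3% of all reads at 6 h and 12.4% and 14.6% at 0 h, so the groups overlapped. The 87 rising genes took 1.02% and 1.11% of reads at 6 h, against 0.179% and 0.208% at 0 h. The 115 falling genes took 0.226% and 0.255% at 6 h, against 1.69% and 1.47% at 0 h. These shares describe the genes chosen for their change and test nothing.

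Length separated the called genes only weakly. The median length was 975 bases for rising genes, 1161 for falling genes and 1104 for all tested genes. For IDs starting with JCGZ the recovered length is a coding length, since 99.9% of these lengths were multiples of 3. In the fourth of 5 length classes (1306 to 1836 bases) 11 of 3472 genes rose and 37 fell, whereas in the other 4 classes 13 to 23 rose and 12 to 23 fell. The change itself hardly followed length (Spearman correlation over genes of -0.05). The difference of library 1 minus library 2 did, with -0.36 at 6 h and 0.41 at 0 h, and the median of that difference in the longest class was -0.40 (log2) at 6 h and 0.38 at 0 h. Genes are not independent replicates, so these correlations are descriptions, and the part of length in the calls was not tested.

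The rising gene with the highest level at 6 h was JCGZ_10096 (507 coding bases). It had 3965 and 7217 RPKM at 6 h, against 337 and 1148 RPKM at 0 h. Both 6 h libraries lay above both 0 h libraries, and in each pair library 2 was the higher. The means were 5591 ± 2299 RPKM at 6 h and 742 ± 573 RPKM at 0 h (SD, n = 2 each), and limma gave a change of 3.10 ± 0.57 (log2, SE) with an adjusted p of 0.0490. This call was close to the threshold and was lost in 15 of 22 alternative fits (adjusted p of 0.00850 to 0.278). The limma adjusted p was 0.162 and 0.278 without library 1 or 2 of 6 h, 0.237 and 0.0525 without library 1 or 2 of 0 h, and 0.0651 to 0.0840 without any 1 library of 12, 24 or 48 h.

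The other abundant rising genes varied in how far their libraries lay apart. The next gene by level at 6 h (567 bases) had 1218 and 748 RPKM at 6 h, against 187 and 126 RPKM at 0 h. The third (483 bases) had 1173 and 741 RPKM at 6 h, against 61.8 and 39.9 RPKM at 0 h, which is a change of 4.2 ± 0.43 (log2, SE; adjusted p from limma of 0.00517). In both genes library 1 was the higher at each time, and the lowest 6 h value was several times the highest 0 h value. The gene of 1065 bases that ranked seventh had 334 and 315 RPKM at 6 h, against 38.9 and 29.9 RPKM at 0 h. A gene of 678 bases changed far less, with 309 and 363 RPKM at 6 h, against 140 and 150 RPKM at 0 h. Of the 12 rising genes with the highest 6 h levels, 1 and 5 were still called without library 1 or 2 of 6 h and 3 and 1 without library 1 or 2 of 0 h.

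The largest rises came from genes of low level at 0 h. In 8 of the 10 called genes with the largest changes the mean at 0 h was under 2 RPKM. The gene with the largest change of all (510 bases) had 729 and 559 RPKM at 6 h, against 7.76 and 5.32 RPKM at 0 h. The next (387 bases) had 284 and 154 RPKM at 6 h (1753 and 1066 reads), against 1.59 and 1.35 RPKM at 0 h (11 and 10 reads), a change of 6.41 ± 0.37 (log2, SE; adjusted p from limma of 0.000862). Another gene of 510 bases, the fourth by size of change, had 132 and 62.2 RPKM at 6 h, against 1.97 and 1.02 RPKM at 0 h. In these 3 genes library 1 was the higher at each time. A gene of 393 bases had 176 and 112 RPKM at 6 h, against 3.69 and 3.85 RPKM at 0 h. A gene of 1275 bases had 64.2 and 40.0 RPKM at 6 h, against 1.006 and 0.532 RPKM at 0 h. A gene of 354 bases had 39.7 and 40.7 RPKM at 6 h, against 1.26 and 0.295 RPKM at 0 h, which differ by 4.59 ± 0.35 (log2, SE; limma adjusted p = 0.00130). The 6 h values of these genes did not come near those of 0 h. Of the 12 largest rises, 9 and 12 were still called without library 1 or 2 of 6 h, and 11 and 7 without library 1 or 2 of 0 h.

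Transcripts that appeared from near 0 were taken as those with at most 1 RPKM in both 0 h libraries and at least 5 RPKM in both 6 h libraries. Of 118 tested genes at or under 1 RPKM in both 0 h libraries, 11 met both limits. Of these 11, 9 were called, against 1.16% of all tested genes. Genes this low at 0 h passed the filter on the mean only through their 6 h values, so the 118 are not all genes near 0 at 0 h. Since the limits use the same values as the test, these counts describe the genes and support nothing. JCGZ_04764 (1848 coding bases) was the most abundant of the 9. It had 71.3 and 88.8 RPKM at 6 h (2100 and 2941 reads), against 0.423 and 0.480 RPKM at 0 h (14 and 17 reads). The means were 80.0 ± 12.4 RPKM at 6 h and 0.451 ± 0.041 RPKM at 0 h (SD, n = 2 each), a ratio of 177, and limma gave a change of 5.80 ± 0.35 (log2, SE) with an adjusted p of 0.000862. It was called in all 22 alternative fits, with an adjusted p of 4.01e-05 to 0.0184.

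A gene of 705 coding bases had no read in either 0 h library and 47.7 and 24.9 RPKM at 6 h (536 and 315 reads). Against a floor of 3 reads per library at 0 h, which is 0.230 RPKM for this length, its 6 h mean was at least 158-fold higher. A gene of 2805 bases, the longest of the group, had 47.0 and 26.1 RPKM at 6 h, against 0.994 and 0.428 RPKM at 0 h. A gene of 2058 bases had 18.6 and 30.3 RPKM at 6 h, against 0.542 and 0.152 RPKM at 0 h. Each of these 3 genes had at least 315 reads in either library of 6 h and at most 50 in either library of 0 h. A gene of 1062 bases had nearly equal values within each time, with 20.5 and 19.3 RPKM at 6 h, against 0.210 and 0.197 RPKM at 0 h. A gene of 906 bases was as even at 6 h, with 11.8 and 11.7 RPKM, against 0.185 and 0.461 RPKM at 0 h. A gene of 771 bases had 29.0 and 15.8 RPKM at 6 h, against 0.723 and 0.677 RPKM at 0 h. A gene of 498 bases had 10.3 and 14.9 RPKM at 6 h, against 0.896 and 0.943 RPKM at 0 h.

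Of the 9 called genes that appeared, 1 was not a JCGZ locus tag (593 bases), with 26.9 and 14.9 RPKM at 6 h, against 0.0941 and 0.176 RPKM (1 and 2 reads) at 0 h. Its change was 4.21 ± 0.32 (log2, SE; limma adjusted p = 0.00130). Of the 9, 8 were still called without either library of 6 h, and 6 and 5 without library 1 or 2 of 0 h. The number of genes within the limits was 11 without library 1 of 6 h, 25 without library 2 of 6 h, and 15 and 16 without library 1 or 2 of 0 h.

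Both genes that appeared without a call had unequal 6 h libraries. One (549 bases) had 88.2 and 13.1 RPKM at 6 h, against 0.610 and 0.570 RPKM at 0 h (limma adjusted p = 0.0595). The other (474 bases) had 994 and 6.00 RPKM at 6 h, against 0 and 0.991 RPKM at 0 h (limma adjusted p = 0.493). In both, library 1 was the high one at 6 h.

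**Figure D3:**
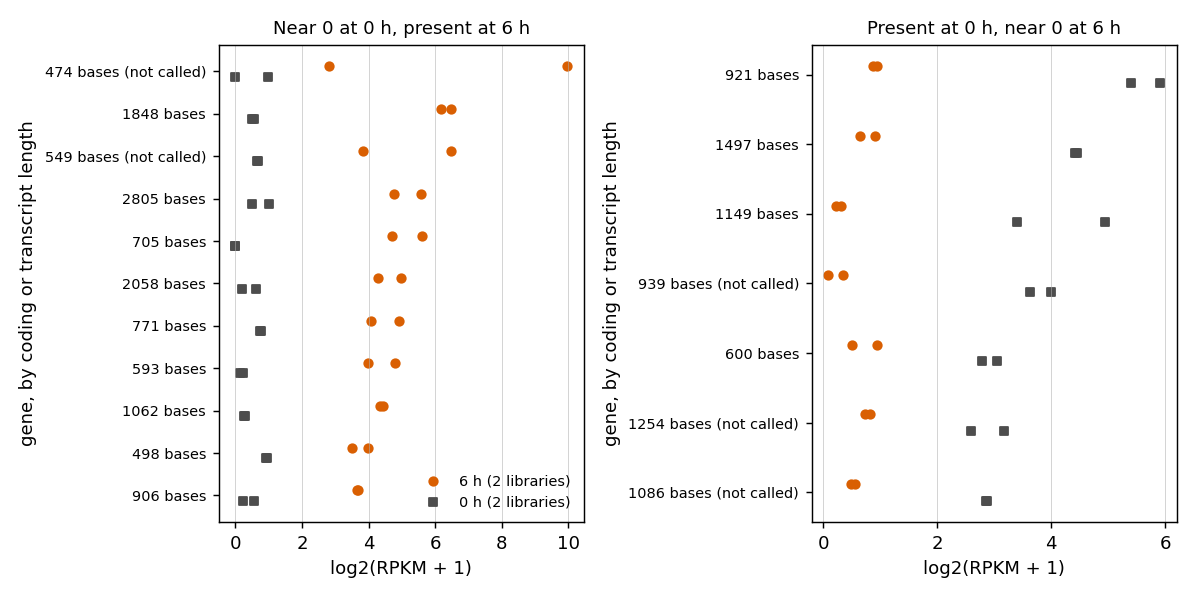
Log2(RPKM + 1) in each library of 6 h (orange circles) and 0 h (grey squares) for the 11 genes near 0 at 0 h and present at 6 h (left) and the 7 genes present at 0 h and near 0 at 6 h (right), each labelled by its length. Both groups of points are apart in every row because the limits require it, and the gene with 994 and 6.00 RPKM at 6 h has its 2 values of that time farthest apart.

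The falling gene with the highest level at 0 h was JCGZ_02232 (585 coding bases). It had 101.2 and 224 RPKM at 6 h, against 3457 and 2423 RPKM at 0 h, so every library of 6 h lay far below both 0 h libraries. The means were 162.6 ± 86.7 RPKM at 6 h and 2940 ± 731 RPKM at 0 h (SD, n = 2 each), and limma gave a change of -4.25 ± 0.73 (log2, SE) with an adjusted p of 0.0382. The call was lost in 9 of 22 alternative fits (adjusted p of 0.00133 to 0.295). The limma adjusted p was 0.261 and 0.122 without library 1 or 2 of 6 h, 0.295 and 0.197 without library 1 or 2 of 0 h, 0.0567 and 0.0564 without library 1 or 2 of 12 h, and 0.0698 and 0.0691 without library 1 or 2 of 48 h. With no filter on low values it was 0.0587.

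Several falling genes were abundant, and some of these were even between libraries. The second by 0 h level (1191 bases) had 157 and 148 RPKM at 6 h, against 1185 and 1192 RPKM at 0 h, which is a change of -2.95 ± 0.30 (log2, SE; adjusted p from limma of 0.00480). The third (1428 bases) had 26.3 and 22.7 RPKM at 6 h, against 725 and 766 RPKM at 0 h, or -4.88 ± 0.30 (log2, SE; limma adjusted p of 0.000862). In both genes the 2 libraries of a time differed by far less than the times did. A gene of 1431 bases had less even libraries, with 31.8 and 16.1 RPKM at 6 h, against 690 and 432 RPKM at 0 h. A gene of 1107 bases had 10.7 and 8.57 RPKM at 6 h, against 196 and 219 RPKM at 0 h. A short gene of 312 bases kept a larger part of its level, with 139 and 160 RPKM at 6 h, against 485 and 531 RPKM at 0 h. Of the 12 falling genes with the highest 0 h levels, 3 and 2 were still called without library 1 or 2 of 6 h, and 2 without either library of 0 h.

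The genes with the largest called falls varied in level at 0 h and in how even their libraries were. The largest of all (2298 bases) had 5.05 and 15.7 RPKM at 6 h, against 396 and 355 RPKM at 0 h, a change of -5.23 ± 0.43 (log2, SE; adjusted p from limma of 0.00185). The second (270 bases) had 7.90 and 6.82 RPKM at 6 h, against 385 and 208 RPKM at 0 h. A gene of 1440 bases had 2.70 and 1.70 RPKM at 6 h, against 168 and 35.7 RPKM at 0 h. In each of the 3 the groups were far apart, although the 0 h libraries of the last differed several-fold. A gene of 1005 bases had 3.25 and 4.50 RPKM at 6 h, against 103.9 and 69.9 RPKM at 0 h. A gene of 1623 bases had 0.387 and 1.58 RPKM at 6 h (10 and 46 reads), against 48.0 and 32.5 RPKM at 0 h (1397 and 1010 reads). Of the 12 largest falls, 5 were still called without either library of 6 h, and 6 and 5 without library 1 or 2 of 0 h.

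Transcripts nearly lost were taken as those with at most 1 RPKM in both 6 h libraries and at least 5 RPKM in both 0 h libraries. Of 143 tested genes at or under 1 RPKM in both 6 h libraries, 7 met both limits. Of these 7, 4 were called, against 1.16% of all tested genes. Genes this low at 6 h passed the filter on the mean only through their 0 h values, and the limits use the same values as the test. These counts therefore describe the genes and support nothing. JCGZ_19893 (921 coding bases) had been the most abundant of the 7. It had 0.817 and 0.909 RPKM at 6 h (12 and 15 reads), against 41.2 and 59.2 RPKM at 0 h (680 and 1044 reads). Its means were 0.863 ± 0.064 RPKM at 6 h and 50.2 ± 12.7 RPKM at 0 h (SD, n = 2 each), a ratio of 58.1 of 0 h over 6 h, and limma gave a change of -4.76 ± 0.49 (log2, SE) with an adjusted p of 0.00517. The call was lost in 3 of 22 alternative fits, without library 1 or 2 of 6 h (limma adjusted p = 0.0564 and 0.0505) and without library 2 of 0 h (0.0752), over a range of 0.000223 to 0.0752.

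The other called genes of this kind fell to traces as well. A gene of 1497 bases had 0.880 and 0.559 RPKM at 6 h, against 20.8 and 20.5 RPKM at 0 h. A gene of 1149 bases had 0.164 and 0.243 RPKM at 6 h (3 and 5 reads), against 9.56 and 29.98 RPKM at 0 h (197 and 660 reads). A gene of 600 bases had 0.418 and 0.930 RPKM at 6 h, against 7.25 and 5.91 RPKM at 0 h. Reads were still counted for each of these genes at 6 h, as few as 3 and 5 for the gene of 1149 bases. Whether counts this low stand for a transcript still present was not tested. The 3 uncalled genes included one of 939 bases with 0.267 and 0.0594 RPKM at 6 h, against 14.9 and 11.4 RPKM at 0 h (limma adjusted p = 0.0510). Of the 4 called genes, 0 were still called without either library of 6 h or without library 2 of 0 h, and 2 without library 1 of 0 h. The number of genes within the limits was 28 and 18 without library 1 or 2 of 6 h, and 12 and 17 without library 1 or 2 of 0 h.

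IDs that are not JCGZ locus tags gave few calls. Of 1275 such IDs 936 were tested, and 1 rose and 5 fell (0.641% called), against 86 that rose and 110 that fell among 16551 tested JCGZ genes (1.18% called). They were also rarer, with a median of 5.88 RPKM over the 4 libraries against 20.5 RPKM for JCGZ genes. Of all tested genes from 3 to under 10 RPKM, the class that holds this median, 0.50% were called. The share ran from 0.357% to 1.53% over all classes, and both kinds of ID were not matched by level. A falling one of 415 bases had 4.84 and 3.63 RPKM at 6 h, against 21.2 and 23.8 RPKM at 0 h. The difference in share between both kinds of ID was not tested.

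Most of the largest uncalled changes came from genes that were high in library 1 of 6 h and low in library 2. In 108 genes library 1 of 6 h lay at least 8-fold above library 2 (log2(RPKM + 1) scale), whereas 1 gene showed the opposite. At 0 h such a difference was seen in 14 genes with library 1 the higher and in 9 with library 2 the higher. The median of the 108 genes was 206 RPKM in library 1 and 4.58 RPKM in library 2 of 6 h, against 14.7 and 12.0 RPKM in the 0 h libraries. They took 3.02% and 0.0858% of all reads at 6 h, against 0.447% and 0.280% at 0 h, so the 2 libraries of 6 h fell on either side of both 0 h libraries. None of the 108 was called, against 1.16% of all tested genes, and 32 of them had a fitted change of at least 2 (log2). The difference they were chosen for enters the estimate of the spread, so the lack of calls was largely fixed by the choice.

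Genes of 1 length recurred among these 108. The commonest length was 474 bases, that of 9 of them and of 39 tested genes in all, and the JCGZ numbers of 6 of the 9 lay within a span of 11. This recurrence was noticed after the values had been seen. The 9 genes ranged from 35.7 to 4149 RPKM in library 1 of 6 h and from 1.65 to 16.6 RPKM in library 2, against 0 to 50.6 and 0.991 to 9.25 RPKM in libraries 1 and 2 of 0 h. The highest of them had 4149 and 13.1 RPKM at 6 h, against 2.0 and 5.73 RPKM at 0 h, a change of 5.75 with an SE of 3.0 (log2; limma adjusted p = 0.542). Whether these genes share reads with near-identical copies cannot be examined without their sequences, so their single values are uncertain.

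The same genes were then followed in the libraries that had not been used to choose them. The median of the 108 genes was 146 and 57.6 RPKM in libraries 1 and 2 of 12 h, 84.7 and 12.3 RPKM at 24 h and 117 and 11.7 RPKM at 48 h. Library 1 was at least 8-fold above library 2 in 9 of the 108 genes at 12 h, 36 at 24 h and 43 at 48 h, while library 2 was never higher by that much in them. Among all 17487 tested genes, 25 had library 1 higher by that much and 2 had library 2 higher at 12 h. These numbers were 51 and 14 at 24 h, and 65 and 2 at 48 h. High levels therefore went with library number 1 at each treated time and also with library 2 of 12 h. What the numbers 1 and 2 stand for is not given in the labels, and the part of a batch, of plants or of handling was not tested.

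**Figure D4:**
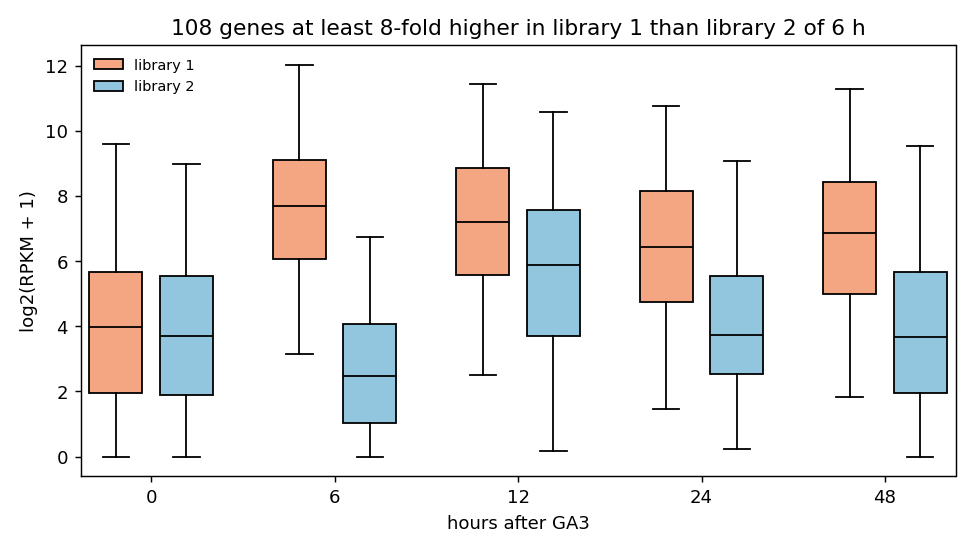
Log2(RPKM + 1) of the 108 genes that were at least 8-fold higher in library 1 than in library 2 of 6 h, by library (orange for 1, blue for 2) and hours after GA3, with boxes from the first to the third quartile, a line at the median and whiskers over the full range. Both 0 h boxes are alike, the 6 h boxes are apart because the genes were chosen for it, and the boxes of library 1 are also the higher ones at 12, 24 and 48 h.

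The genes called at 6 h were also described at the later times, whose libraries enter the test only through the estimate of the spread. The rising genes, with medians of 43.4 RPKM at 6 h and 6.22 RPKM at 0 h, had medians of 19.7 RPKM at 12 h, 5.12 RPKM at 24 h and 6.09 RPKM at 48 h. The falling genes, with medians of 8.10 RPKM at 6 h and 50.4 RPKM at 0 h, had medians of 7.71 RPKM at 12 h, 36.0 RPKM at 24 h and 38.4 RPKM at 48 h. Both sets were chosen on their 6 h and 0 h values, so these medians are descriptions. The rising genes took 0.551% and 0.483% of reads in libraries 1 and 2 of 12 h, between their shares at 6 h and at 0 h. The falling genes took 0.266% and 0.292% at 12 h, slightly above their share at 6 h. Of the genes that appeared from near 0, the one of 771 bases had 12.1 and 8.49 RPKM at 12 h and the one of 906 bases 5.72 and 9.59 RPKM, while the one of 2058 bases had 0.165 and 0.611 RPKM. At 24 and 48 h each of the 9 called ones was at or under 1.48 RPKM in every library.

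At the later times the named genes had the following values. JCGZ_04764 had 6.63 and 12.9 RPKM at 12 h, 0.179 and 0.487 RPKM at 24 h and 0.354 and 0.752 RPKM at 48 h. JCGZ_10096 had 1726 and 1739 RPKM at 12 h, 635 and 877 RPKM at 24 h and 716 and 551 RPKM at 48 h. Both were thus highest at 6 h, and their 24 h and 48 h values lay within or near the range of the 0 h libraries. JCGZ_02232 had 3.98 and 5.28 RPKM at 12 h, below each 6 h value, 4782 and 858 RPKM at 24 h and 1793 and 1419 RPKM at 48 h. JCGZ_19893 had 0.368 and 0.398 RPKM at 12 h, 85.2 and 27.4 RPKM at 24 h and 35.3 and 51.0 RPKM at 48 h. Both falling genes were lowest at 12 h, and their 2 libraries of 24 h were farther apart than those of the other times. Over all 17487 genes, 1 was higher and 21 lower at 12 h than at 6 h (0.00572% and 0.12%). At 24 h 52 were higher and 105 lower than at 6 h (0.297% and 0.6%), and at 48 h 52 were higher and 99 lower (0.297% and 0.566%). JCGZ_04764 was among those lower at all 3 times and JCGZ_19893 among those higher at 24 and 48 h. The lower 12 h level of JCGZ_19893 was not called (limma adjusted p = 0.9999). No later time was called against 6 h for JCGZ_10096 (limma adjusted p of 0.0599 to 0.746) or for JCGZ_02232 (0.0722 to 0.101).

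**Figure D5:**
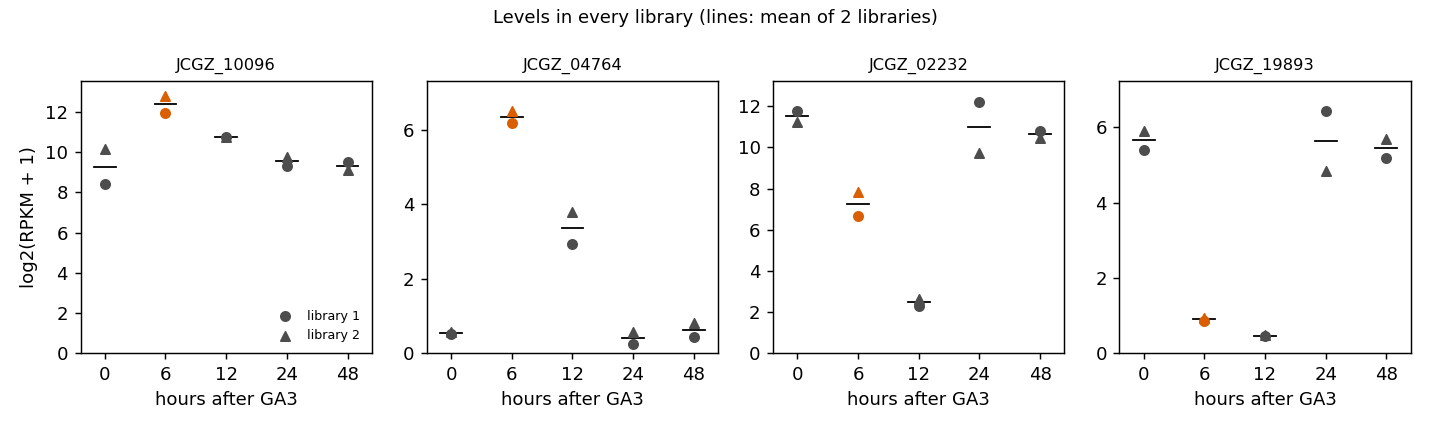
Log2(RPKM + 1) of the 4 named genes in each library (circles for library 1, triangles for library 2) by hours after GA3, evenly spaced, with a line at the mean of the 2 libraries and the 6 h libraries in orange. The 2 genes on the left are highest at 6 h, and the 2 on the right are lowest at 12 h.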

How the data were processed

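The series holds 10 libraries of 5 times (0, 6, 12, 24 and 48 h, 2 each), and the sample titles gave the groups. The deposited values were read as RPKM, since whole read numbers, scaled by a length per gene and a depth per library, account for them; per the file headers no unit is written. The submitters' processing notes list Bowtie 0.12.2 and mm8, which is a mouse genome, without saying for what. The genome aligned to, the counting tool and the annotation are not given in the sources used. Reads and lengths were recovered from ratios of the RPKM values (100% of 203696 values within 0.01 of a whole read) with Python 3.11.15.

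The test was limma (version 3.58.1, R 4.3.3) on log2(RPKM + 1), with trend and robust moderation, all 10 libraries and time as a factor, because 4 libraries alone leave few degrees of freedom. P-values were adjusted by Benjamini-Hochberg over the 17487 genes (threshold 0.05). Alternatives were other pseudocounts, filters, libraries, moderation, centring, a replicate block, a length correction and voom on recovered reads.

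Named genes were the called gene highest at 6 h, the called gene highest at 6 h among those appearing from near 0, the called gene highest at 0 h and the called gene highest at 0 h among those nearly lost; others are given by length. Gene lists and cell type markers could not be run because 0 of 28447 IDs matched the RefSeq table of 28617 genes. The comparison and rules were chosen with earlier results of these data known. The floor of 3 reads covers counting error only. No RPKM value above 0 was identical between the 2 libraries of 6 h or those of 0 h.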

Additional observations from a re-analysis of the deposited data

Results flagged for a closer look

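For 2 of the 4 named genes the level at a later time differed from that at 6 h (limma, adjusted p under 0.05 over all genes tested), which is the same test as a difference between their changes from 0 h. The genes were named for their values at 6 h and 0 h, and the 6 h libraries enter each difference, so a return is favoured by the choice. The background was 1 gene higher and 21 lower at 12 h than at 6 h, 52 higher and 105 lower at 24 h and 52 higher and 99 lower at 48 h. For JCGZ_04764 the change at 12, 24 and 48 h was -2.97, -5.93 and -5.71 (log2) relative to that at 6 h. For JCGZ_19893 the change at 24 and 48 h was 4.73 and 4.54 relative to that at 6 h.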

How the results depend on the processing

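Against 87 rising and 115 falling genes, the 4 libraries of 6 h and 0 h fitted alone gave 151 and 285. A replicate block of library numbers gave 145 and 210, and the block with a coding length correction 235 and 337. The numbers could not be taken as pairs: library differences correlated over genes at 0.536 to 0.699 between treated times but at -0.316 to -0.133 between 0 h and treated times. With the numbers of 0 h crossed, chosen after seeing the data, the block gave 372 and 464. Leaving out single libraries gave 11 to 75 rising and 6 to 120 falling genes. Voom on recovered reads gave 64 and 78. The counts stayed within 1.5 times under both other pseudocounts, the 3 other filters, non-robust moderation and median centring. With near 0 set at 0.5 RPKM, 5 genes appeared and 3 were nearly lost; with presence set at 10 RPKM, 10 and 3. Without single libraries these counts were 11 to 25 and 12 to 28. The change of each of the 4 named genes kept its sign in all 22 alternatives, which the separation of their libraries largely fixes. The causes were not tested. With 2 libraries a time, and 3 reads on a gene of 1 kb worth 0.157 to 0.188 RPKM, the smallest called change among genes under 3 RPKM was 1.36 (log2), against 1.03 between 30 and under 100 RPKM.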
